A study of Mus musculus with 6 samples.

Results

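The TGF-beta and BMP receptors and Smads described here are 10 genes, the receptors Bmpr1a, Bmpr1b, Bmpr2, Tgfbr1, Tgfbr2 and Acvr1 and the signal transducers Smad2, Smad3, Smad4 and Smad5, out of 13840 genes with a symbol on the array. They were chosen by symbol, through probes annotated to that symbol alone. Such a probe was found for 9 of the 10 genes, 1 probe each, and Smad4 was not analysed here. Each array measured the RNA of 1 mouse oocyte, and the comparison sets 3 mature oocytes deficient in Ago2 against 3 germinal vesicle (GV) oocytes of the wild type. The Ago2-deficient oocytes came from [Ago2F/F, Zp3-Cre] conditional knockout females, in which Cre, driven by the Zp3 promoter, removes floxed Ago2 in the growing oocyte. The study's methods give adult females and ovulated oocytes for mature cells, and a few oocytes of such females kept an intact allele. The wild-type oocytes carry the GV stage in their label, which also says that they were taken from oviducts of adult females and freed of cumulus cells with hyaluronidase. Oviducts are where ovulated oocytes are found, so the stage of the controls is in doubt, and GV is used here as their label only. Genotype and labelled stage differ between the groups together and cannot be told apart.

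TGF-beta family ligands bind pairs of transmembrane kinases. A type II receptor, such as Tgfbr2 or Bmpr2, activates a type I receptor, such as Tgfbr1, Bmpr1a, Bmpr1b or Acvr1, which then phosphorylates receptor Smads. Smad2 and Smad3 carry signals of TGF-beta, activin and GDF9, Smad5 carries signals of BMPs, and Smad4 is the partner they share on the way to the nucleus. In the ovary the oocyte secretes the ligands GDF9 and BMP15, which act on the surrounding granulosa cells.

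Detection required a spot's signal-to-noise ratio to reach 3. Each Ago2-deficient oocyte had 4620 to 6798 of the 33012 probes detected and each GV oocyte 10650 to 11334. Of 16 oocyte markers on the array, 16 were detected in each GV oocyte and 11 or 12 in each Ago2-deficient oocyte. By the call rule given below, 13 of the 16 were lower in Ago2-deficient oocytes and none higher, at a median log2 difference of -2.57. Among all tested genes 44.8% were lower and 17.4% higher, at a median of -1.39. Under the other scalings of the arrays, also described below, 10 to 16 of these markers were lower. The share of all tested genes called lower was then 31.3% to 78.6%. Of 17 cumulus and granulosa markers, 0 to 3 were detected in an Ago2-deficient oocyte and 4 to 6 in a GV oocyte. Their summed deposited signal, not scaled between arrays, was 4070 to 5650 and 5420 to 13300. On the quantile-normalized values, taken out of log2, the sums were 3710 to 6720 and 5050 to 7850. Of these 17, 8 were detected on no array, among them Fshr, the receptor for follicle-stimulating hormone, and Amh. The 3 that could be tested, Inha, Nr5a2 and Hsd17b1, entered through detection in all GV oocytes alone, and such genes are prone to differ. They were called lower in Ago2-deficient oocytes, Nr5a2 by 11.6-fold and the others by at least 6.40-fold and 5.51-fold. Nr5a2 alone was called under each scaling. The log2 differences of the 14 not tested ran from -1.60 for Inhba to 2.29 for a probe of Pgr. Of 14 markers of other ovarian and blood cells, 1 was detected in each Ago2-deficient oocyte and 3 to 5 in a GV oocyte. The summed deposited signals were 105000 to 612000 and 152000 to 170000. Nearly all of that sum was Krt8, a keratin, and without it the sum was 2170 to 4100 and 6460 to 8320, with 0 and 2 to 4 of the other 13 markers detected. On the quantile-normalized values the sums without Krt8 overlapped, at 2550 to 4580 and 3960 to 5550. With Krt8 they were 214000 to 452000 and 88800 to 117000. Of the 2 markers tested, Krt8 was called higher in Ago2-deficient oocytes, at a log2 difference of 1.61 (limma's adjusted p = 0.0109). It was not called without scaling (0.44) or under median scaling (-0.66). The other, Adgre1, a macrophage marker, was detected in all GV oocytes and was at least 14.8-fold lower in Ago2-deficient oocytes. The part of such cells, and of the lower oocyte markers, in the results was not tested. The probe for Ago2 read 6.67, 6.49 and 6.94 on the log2 scale in Ago2-deficient oocytes and 7.88, 6.25 and 6.93 in GV oocytes, above the detection limit in 1 GV oocyte only. The place of that probe in the gene, inside or outside the deleted exons, is not given here, and the probe is no check of the genotype.

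Fewer of the receptors and Smads were detected in Ago2-deficient than in GV oocytes. Each Ago2-deficient oocyte had 2 of the 9 genes detected, and the GV oocytes had 5, 5 and 6. Over all named genes the share detected was 16.8% to 25.1% in Ago2-deficient oocytes and 41.5% to 43.7% in GV oocytes. Bmpr1b was the 1 gene of the 9 detected in all 6 oocytes. Beside Bmpr1b, Ago2-deficient replicate 1 showed Smad3, replicate 2 showed Tgfbr1 and replicate 3 showed Bmpr2, so that the second gene past the limit differed. Bmpr2 in replicate 2 and Tgfbr1 in replicate 3 were just under the limit, at signal-to-noise ratios of 2.81 and 2.65. Bmpr1b, Bmpr2, Tgfbr1 and Smad2 were detected in all 3 GV oocytes. Acvr1 and Smad5 were detected on no array.

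**Figure D1:**
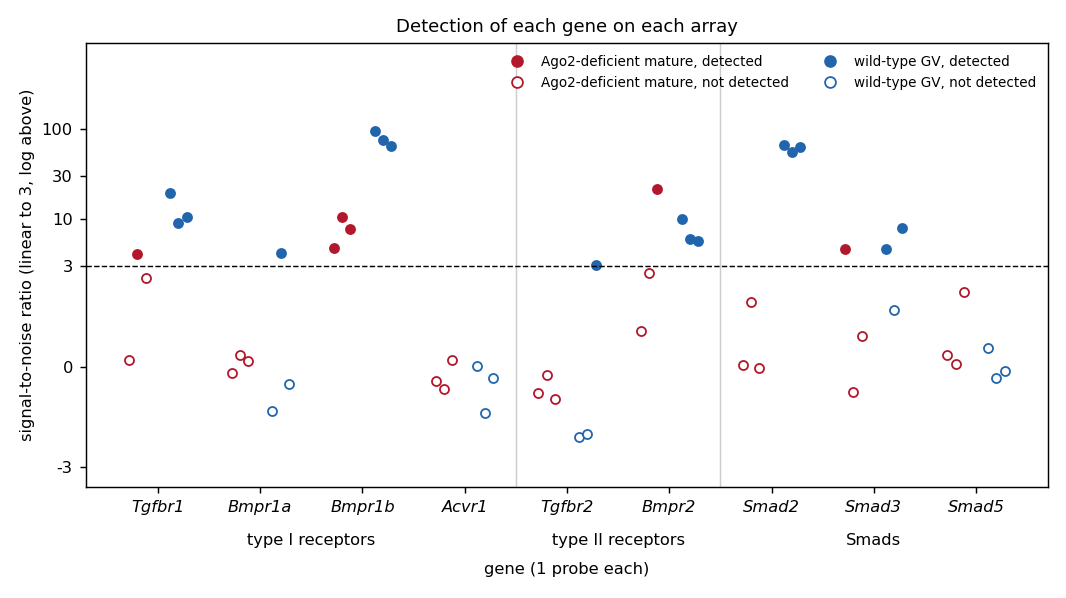
Signal-to-noise ratio of the 9 genes on each array (vertical axis, linear up to 3 and logarithmic above), with type I receptors, type II receptors and Smads from left to right. Each circle is 1 oocyte, filled where it lies at or above the detection limit of 3 (dashed line); Bmpr1b is filled in all 6 oocytes, and Smad2 lies between 55.63 and 66.38 in GV oocytes and at most at 1.94 in Ago2-deficient ones.

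Levels are given as quantile-normalized log2 signals, which the authors had brought to 1 common distribution over the 6 arrays. To be tested, a gene needed its probe detected in every oocyte of one group or the other and a tested gene was called lower or higher where limma gave an adjusted p under 0.05 and the signals differed more than 2-fold. Of the 9 genes 4 were tested, and of these 2 were lower in Ago2-deficient mature oocytes, Smad2 and Bmpr1b, and none was higher, also at an unadjusted p under 0.05. Of all 7915 tested genes, counting a probe without a single symbol as a gene of its own (4568 had a symbol), 44.8% were lower, 17.4% higher and 62.2% called either way, so the share of lower genes among the 4 was near that of all genes. The median log2 difference of all tested genes was -1.39. Bmpr2, Tgfbr1 and Smad2 entered the test through detection in GV oocytes alone, and a gene that enters by one group alone is prone to differ. The labels name no animal for an oocyte, and the p-values therefore measure only the spread between these cells, which may be technical in part.

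**Figure D2:**
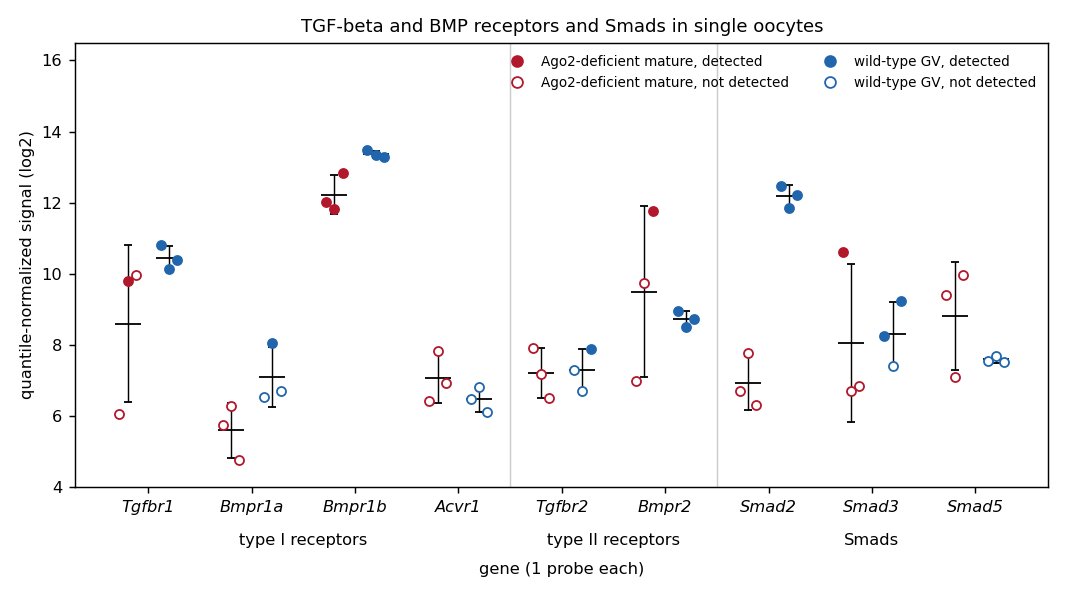
Quantile-normalized log2 signal (vertical axis) of the 9 genes in the 2 groups of oocytes. Each circle stands for 1 oocyte, filled where detected, and horizontal marks with error bars give the mean and SD of a group; for Smad2 the GV oocytes lie at 11.85 and above and the Ago2-deficient oocytes at 7.77 and below.

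Smad2, which transmits TGF-beta and activin signals, fell below detection and showed the largest difference of the 4 tested genes. Its log2 signal was 6.70, 7.77 and 6.32 in Ago2-deficient oocytes and 12.48, 11.85 and 12.22 in GV oocytes. All 3 GV oocytes were thus far above all 3 Ago2-deficient oocytes, in none of which the gene was detected. The means were 6.93 ± 0.75 and 12.18 ± 0.31 (SD, n = 3 arrays in each group). The log2 difference was -5.25 (standard error 0.46, 95% interval -6.37 to -4.14, adjusted p = 0.000245 from limma). Since the difference rests on signals under the detection limit, the fold is given as a bound. It was taken against the higher of the lowest detected signal on each array and the probe's own signal. For Smad2 its own signal was the higher on each Ago2-deficient array, so the bound of at least 38.1-fold lower is the fitted difference. Such bounds, here and for other genes, allow for detection only and cover neither the standard error nor the scaling. Leaving out 1 array kept the bound between 30.9 and 51.0. Besides the quantile-normalized values, 4 other ways of scaling the arrays were run on the deposited signals. These were no scaling, median scaling (the same median signal on every array), common-probe centring (the same median over the probes detected on every array) and cyclic loess (a smooth correction between pairs of arrays). The Smad2 difference was -3.05 under cyclic loess and -6.93 under median scaling. Relative to the median of all tested genes in the same scaling it was -3.86 on the quantile-normalized values and -2.69 under cyclic loess, and with dim probes kept in it was -5.38.

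Loss of detection was common at the GV level of Smad2. Of 795 tested genes detected in all GV oocytes with a GV mean within 0.5 of that of Smad2 on the log2 scale, 21.6% were detected in no Ago2-deficient oocyte and 43.5% in all 3. Before any scaling between arrays, the deposited signal of the Smad2 spot was 179, 335 and 92.4 in Ago2-deficient oocytes and 14500, 7490 and 9400 in GV oocytes. Undetected spots had a median signal of 231, 220 and 145 on the Ago2-deficient arrays, so that Smad2 read below that median in 2 of these oocytes and above it in replicate 2.

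Smad3, the close relative of Smad2 that shares its upstream receptors, showed no such separation. Its log2 signal was 10.62, 6.70 and 6.85 in Ago2-deficient oocytes and 8.25, 7.41 and 9.22 in GV oocytes. The highest value of all 6 was that of Ago2-deficient replicate 1, the only oocyte of its group with Smad3 detected, while 2 GV oocytes had it detected. The gene did not meet the detection rule and was not tested, and the means of 8.06 ± 2.22 and 8.29 ± 0.90 (SD, n = 3) differed by -0.23. With every probe tested, this difference had an adjusted p = 0.918 in limma. Whether the probes for Smad2 and Smad3 tell these related transcripts apart was not tested.

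Smad5, a BMP Smad, was detected in no oocyte. It read 9.41, 7.09 and 9.96 in Ago2-deficient oocytes, with signal-to-noise ratios of 0.34, 0.08 and 2.23, and 7.55, 7.70 and 7.52 in GV oocytes. The groups overlapped, and the higher Ago2-deficient values were those of undetected spots. The log2 difference was 1.23, with an adjusted p = 0.350 when every probe was tested with limma. Neither presence nor absence of Smad5 mRNA follows from these spots.

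Among the type I receptors, Bmpr1b, which binds BMPs, was the 1 gene detected throughout. Its log2 signal was 12.01, 11.81 and 12.84 in Ago2-deficient oocytes and 13.47, 13.33 and 13.28 in GV oocytes. Every GV oocyte was above every Ago2-deficient oocyte. The groups did not overlap, in either direction, for 70.4% of all tested genes. The means were 12.22 ± 0.55 and 13.36 ± 0.10 (SD, n = 3), and the difference of -1.14, a 2.20-fold lower signal, was just past the threshold (standard error 0.38, 95% interval -2.05 to -0.23, adjusted p = 0.0360 from limma). This call was lost in 5 of the 6 fits that left out 1 array, with an adjusted p of 0.0584 to 0.106 from limma, and kept without Ago2-deficient replicate 3 (-1.45, adjusted p = 0.00825). It was also lost under cyclic loess (-0.87, adjusted p = 0.0676) and when dim probes were kept in (adjusted p = 0.145).

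The size of the Bmpr1b difference depended on the scaling between arrays. The deposited signals were 1340, 2510 and 3340 in Ago2-deficient oocytes and 27800, 21600 and 20000 in GV oocytes. Without scaling the log2 difference was -3.36, under median scaling -4.46, and under common-probe centring it was -1.80. Relative to the median of all tested genes Bmpr1b was at 0.25 on the quantile-normalized values, at -0.51 under cyclic loess and at -1.38 under the other 3 scalings. On the same quantile-normalized values it was at -1.27 relative to the median with dim probes kept in, and at -1.97 relative to that of probes detected on all 6 arrays. Bmpr1b thus read lower in Ago2-deficient oocytes under each scaling, while its direction relative to the other genes changed with the scaling and with the filter on detection.

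Tgfbr1, the type I receptor for TGF-beta and also used by GDF9, was detected in all GV oocytes and in 1 Ago2-deficient oocyte. Its log2 signal was 6.05, 9.79 and 9.96 in Ago2-deficient oocytes and 10.81, 10.14 and 10.38 in GV oocytes. The groups did not overlap, but 2 of the Ago2-deficient oocytes came within 0.5 of the lowest GV oocyte and replicate 1 was far below. The means were 8.60 ± 2.21 and 10.44 ± 0.34 (SD, n = 3). The difference of -1.84 was not called (standard error 1.05, 95% interval -4.35 to 0.66, adjusted p = 0.164 from limma). Without Ago2-deficient replicate 1 it was -0.57, and without replicate 3 of the same group -2.52. Tgfbr1 was called lower with no scaling (-2.69, adjusted p = 0.00189 from limma) and under median scaling (-3.79, adjusted p = 0.000287), and was at -0.16 under cyclic loess. Of 1430 tested genes with a GV mean within 0.5 of that of Tgfbr1, 22.1% were detected in 1 Ago2-deficient oocyte and 39.9% in none.

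The BMP type I receptors Bmpr1a and Acvr1 were near the detection limit or under it. Bmpr1a read 5.75, 6.28 and 4.76 in Ago2-deficient oocytes and 6.52, 8.06 and 6.69 in GV oocytes, and was detected in GV replicate 2 alone. All GV values were higher, but 5 of the 6 were those of undetected spots, and the difference of -1.49 had an adjusted p = 0.168 when every probe was tested with limma. Acvr1 read 6.43, 7.82 and 6.93 in Ago2-deficient oocytes and 6.49, 6.82 and 6.10 in GV oocytes, all undetected. Its groups overlapped, with a difference of 0.59 (adjusted p = 0.517 with every probe tested with limma).

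Bmpr2, the BMP type II receptor through which BMP15 and GDF9 act, had a log2 signal of 6.98, 9.73 and 11.77 in Ago2-deficient oocytes and 8.94, 8.50 and 8.72 in GV oocytes. The GV oocytes lay close together and were all detected, while the Ago2-deficient oocytes spread over 4.80 and lay both below and above them, with replicate 3 alone detected (signal-to-noise 21.36). The means were 9.50 ± 2.41 and 8.72 ± 0.22 (SD, n = 3), and the Ago2-deficient SD exceeded that of 96.4% of tested genes. The difference of 0.77 was not called (standard error 1.12, 95% interval -1.92 to 3.47, adjusted p = 0.571 from limma). Its sign rested on single arrays, being -0.36 without Ago2-deficient replicate 3 and 2.03, called higher with an adjusted p = 0.0272 from limma, without Ago2-deficient replicate 1. Bmpr2 was also called higher under cyclic loess (2.22, adjusted p = 0.0240 from limma) and under common-probe centring (2.13, adjusted p = 0.0134), and was at -0.53 under median scaling. Relative to the median of all tested genes its difference was 2.16 to 2.58 in the 5 scalings, but 0.65 with dim probes kept in and 1.13 without Ago2-deficient replicate 3.

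Tgfbr2, the type II receptor for TGF-beta, read 7.91, 7.18 and 6.50 in Ago2-deficient oocytes and 7.30, 6.71 and 7.88 in GV oocytes. The groups overlapped, and only GV replicate 3 passed the detection limit, with a signal-to-noise ratio of 3.09. The means of 7.20 ± 0.71 and 7.30 ± 0.58 (SD, n = 3) differed by -0.10 (adjusted p = 0.929 with every probe tested with limma).

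**Figure D3:**
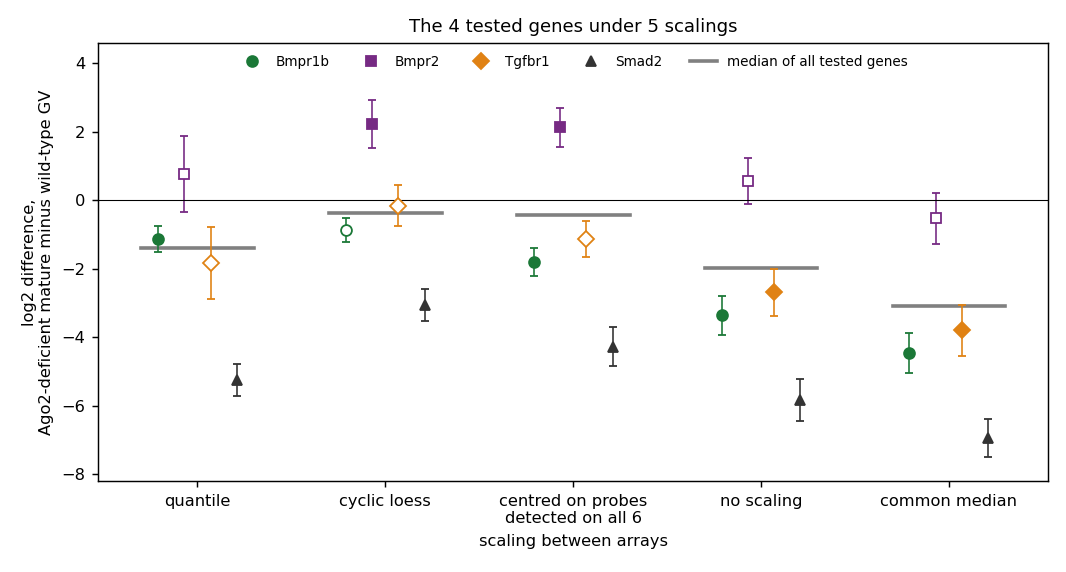
Log2 difference of the 4 tested genes, Ago2-deficient mature minus wild-type GV (vertical axis), under 5 scalings between arrays (horizontal axis). Symbols are fitted differences with standard errors, filled where called, and grey lines are the median of all tested genes, from -0.36 under cyclic loess to -3.08 under median scaling. Smad2 is called under each of the 5, and Bmpr2 goes from 2.22 to -0.53.

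**Figure D4:**
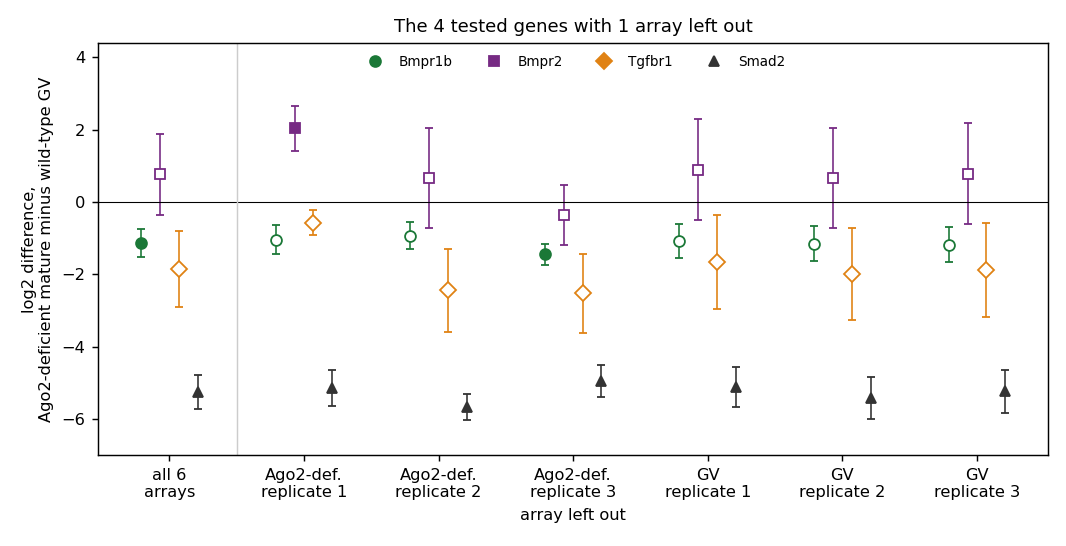
Log2 difference of the 4 tested genes, Ago2-deficient mature minus wild-type GV (vertical axis), with all 6 arrays and with each array left out (horizontal axis). Symbols are fitted differences with standard errors, filled where called. Smad2 stays between -5.67 and -4.95, Bmpr1b is called with all arrays and without Ago2-deficient replicate 3, and Bmpr2 moves from 2.03 to -0.36.

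The spread between oocytes was wider in the Ago2-deficient group for each of the 4 tested genes. The SD of their log2 signal was 0.55 to 2.41 there and 0.10 to 0.34 in GV oocytes, beside medians of 0.74 and 0.28 over all tested genes. Among Ago2-deficient oocytes 37.7% of tested genes had a smaller SD than Bmpr1b, 50.8% than Smad2, 93.6% than Tgfbr1 and 96.4% than Bmpr2. Among GV oocytes these shares were 8.68% for Bmpr1b, 56.0% for Smad2, 60.7% for Tgfbr1 and 37.2% for Bmpr2.

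The other genes of the pathway were taken from 5 lists that hold 106 genes, of which 87 were on the array and 28 were tested. Of these 8 were lower and 8 higher in Ago2-deficient oocytes, at a median log2 difference of -0.99, beside 44.8% lower and 17.4% higher among all tested genes. These counts moved with the scaling, to 19 lower and 2 higher under median scaling and to 0 lower and 8 higher under common-probe centring. The receptors and Smads outside the 10 genes held 2 higher genes, 1 lower gene and 1 that was not called, of 4 tested and 14 on the array, at a median of -0.11, and under median scaling 3 lower genes and none higher. Acvr2b, a type II receptor for activins, was at 15.46, 15.05 and 15.14 in Ago2-deficient oocytes and 11.45, 11.92 and 12.26 in GV oocytes, all detected and without overlap. The difference was 3.34 (standard error 0.35, adjusted p = 0.000415 from limma), and under median scaling it was 0.19 and not called. Smad6, a Smad that inhibits BMP signals, rose by 1.53 (standard error 0.33, limma's adjusted p = 0.00634) but was called lower at -1.67 under median scaling, was at -0.57 without scaling, and was not called under common-probe centring (0.99). Rgmb, a BMP co-receptor detected in no Ago2-deficient oocyte, was at least 4.73-fold lower (adjusted p = 0.00264 from limma), and was not called, at -0.38, under common-probe centring. Eng, another co-receptor, differed by -1.74 and was not called (95% interval -3.52 to 0.03, adjusted p = 0.0787 from limma), with a value of 0.30 under that centring, and was called lower under median scaling (-2.36), under cyclic loess (-2.03) and without Ago2-deficient replicate 2 (-2.60).

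Of 6 ligand genes tested, among 21 on the array, 3 were lower and none higher, also at an unadjusted p under 0.05 in limma. Their median was -1.62, beside 44.8% lower, 17.4% higher and a median of -1.39 among all tested genes. The count of lower ligands was 6 with no scaling and under median scaling, 1 under cyclic loess and 0 under common-probe centring. Inha, the inhibin alpha subunit, was at least 6.40-fold lower and Tgfb3 at least 5.94-fold lower, and both were detected in all GV oocytes and in no Ago2-deficient oocyte. Inha is also on the list of granulosa markers. Both lost their call under cyclic loess (-0.86 for Inha and -0.89 for Tgfb3) and under common-probe centring, and Inha also did without Ago2-deficient replicate 2 or GV replicate 1 (limma's adjusted p = 0.0594 and 0.0509). Without GV replicate 2 the bound for Inha was 3.86. Gdf9, a ligand that the oocyte secretes, read 19.23, 19.17 and 19.60 in Ago2-deficient oocytes and 20.38, 20.23 and 20.43 in GV oocytes. Its difference of -1.01 was just past the fold limit (adjusted p = 0.0259 from limma), kept its call on leaving out Ago2-deficient replicate 3 but none of the other 5 arrays, and was at 0.01 with that centring. Bmp15, which acts with Gdf9, was detected in all 6 oocytes and was not called at -0.96 (95% interval -2.17 to 0.24, adjusted p = 0.135 from limma), with a value of 0.04 under cyclic loess. It was called lower at -1.47 without Ago2-deficient replicate 1 and at -3.92 under median scaling.

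Of 4 tested genes for extracellular antagonists and latency proteins, 1 was higher and 1 lower, at a median of -1.44. Among all tested genes 17.4% were higher and 44.8% lower, at a median of -1.39. The list had 3 lower genes under median scaling, 2 with no scaling and 0 under cyclic loess and common-probe centring. In each of these scalings 1 gene was higher. Dcn, or decorin, a matrix protein that binds TGF-beta, passed the detection limit in every Ago2-deficient oocyte but no GV oocyte and was at least 15.3-fold higher (adjusted p = 0.00318 from limma), with a bound of 9.23 without Ago2-deficient replicate 3. Ltbp3, which holds latent TGF-beta, was at least 7.03-fold lower (adjusted p = 0.00659 from limma), and was not called under cyclic loess (-1.60) or under common-probe centring (-1.62). Dand5, an antagonist of Nodal, was not called at -1.05 (adjusted p = 0.101 from limma), was at 0.31 and 0.60 under these scalings, and was called lower at -2.06 under median scaling.

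The list of intracellular regulators and Smad cofactors had the most tested genes of the 5 lists, 12. Of these 5 were higher and 2 lower, at a median of 0.79, beside 17.4% higher and 44.8% lower among all tested genes. This balance turned under median scaling, with 1 higher, 5 lower and a median of -1.25, and was even with no scaling, with 3 higher, 3 lower and a median of -0.14. Smurf2, a ubiquitin ligase for Smads and their receptors, read 15.49, 15.84 and 15.38 in Ago2-deficient oocytes and 11.12, 12.14 and 12.16 in GV oocytes. All 6 oocytes had it detected and the groups did not overlap, and the difference was 3.77 (standard error 0.41, adjusted p = 0.000451 from limma). Ski, a repressor that binds Smads, rose by 3.67 (standard error 0.32, limma's adjusted p = 0.000244). Under median scaling neither was called, at 0.70 for Smurf2 and 1.18 for Ski. Ppp1r15a, a phosphatase subunit that can act on type I receptors, rose by 4.63 (standard error 0.64, limma's adjusted p = 0.00108) and was called under each of the 5 scalings, from 2.67 to 6.15, though only 1 GV oocyte had it detected.

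The other called regulators were named after their values were seen. Hgs, an endosomal protein, was higher by 2.83 and Tob1, an antiproliferative protein, by 1.95, but both were on the other side of 0 under median scaling, at -0.24 and -0.90, and neither was called with no scaling. Stub1, a ubiquitin ligase, was at least 4.41-fold lower and lost its call under cyclic loess (-0.73), under common-probe centring (-0.86) and without any 1 of the GV arrays, and without Ago2-deficient replicate 2 its bound was 2.71. Map3k7, the kinase TAK1, was at least 3.03-fold lower, and was not called with no scaling (-0.89) or under common-probe centring (0.66). Wwp2, another ubiquitin ligase, was not called, with a difference of 0.89 (95% interval -0.14 to 1.92, adjusted p = 0.113 from limma) that was -1.38 under median scaling and -0.28 with no scaling.

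Of 15 known transcriptional targets of Smads on the array, 5 were detected in no oocyte and most did not meet the rule for testing. The 3 that did had a median difference of -0.07. Smad6, given above, is one of them and was higher. Cdkn2b, a cell cycle inhibitor induced by TGF-beta, was at least 4.35-fold lower (adjusted p = 0.00429 from limma), and was at -0.19 under common-probe centring. Junb, an AP-1 factor, read 6.60, 10.27 and 11.29 in Ago2-deficient oocytes and 9.35, 9.75 and 9.26 in GV oocytes, with a difference of -0.07 (95% interval -2.83 to 2.70, adjusted p = 0.964 from limma). As for Bmpr2 and Tgfbr1, Ago2-deficient replicate 1 was the lowest of the 6 oocytes for Junb, and without it Junb was called higher at 1.33 (adjusted p = 0.0298 from limma). Ago2-deficient replicate 1 also had the fewest probes detected of the 6 oocytes. It was not low throughout, being the highest of the 6 for Smad3, at 10.62, and of its group for Bmp15, at 11.47.

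**Figure D5:**
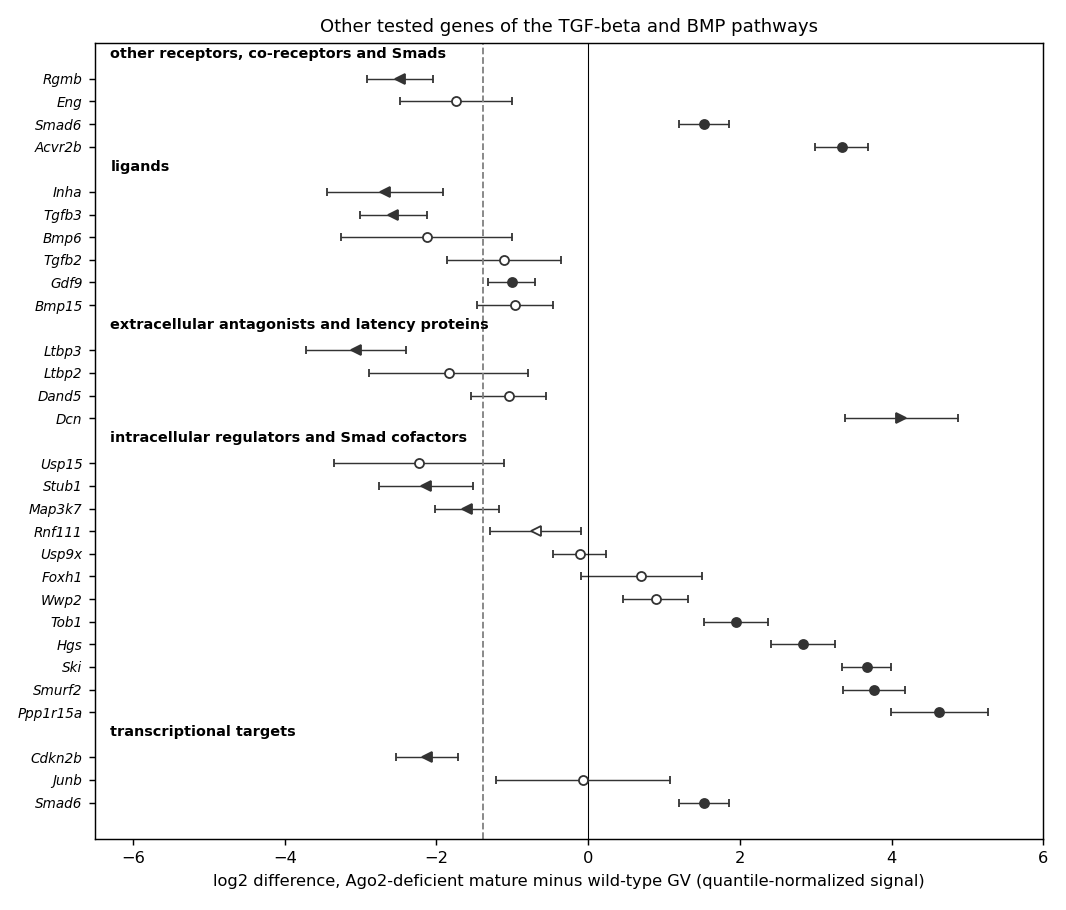
Log2 difference with standard error, Ago2-deficient mature minus wild-type GV (horizontal axis), of the 28 other tested genes of the TGF-beta and BMP pathways in 5 lists, with Smad6 in the first and last. Filled symbols are called genes, triangles are genes detected on no array of one group, drawn at the fitted value, and a dashed line marks -1.39, the median over all tested genes. On these values the called ligands lie left of 0, while 5 called regulators lie right of 0 and 2, Stub1 and Map3k7, left of it. Under median scaling Smad6, Hgs, Tob1, Wwp2 and Foxh1 move to the left of 0. Junb, Dand5, Bmp15, Tgfb2, Rnf111 and Usp9x move to the right under cyclic loess, as Junb, Dand5, Eng, Gdf9, Map3k7, Tgfb2 and Rnf111 do under common-probe centring.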

How the data were processed

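Single oocytes were profiled on Applied Biosystems mouse arrays, 1 cell per array. The authors amplified cDNA, hybridized digoxigenin-labelled cRNA and scanned the chemiluminescence, and the deposited signal intensity carries no scaling between arrays. Beside it the authors deposited, for each spot, a score of signal over noise and a code that flags its quality. The scanner's software was not given in the sources used here. The authors also deposited quantile-normalized log2 values, which the series table repeats with 2675 cells empty, all with flag codes of 5000 or more. The meaning of single codes is not given there.

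Of 33012 probes, 14411 carried 1 symbol, 247 several and 18354 none, and the gene identifiers of 14402 were found in the gene table, with 0 symbols changed. Probes detected (signal-to-noise of at least 3) on all arrays of 1 group entered a linear model (lmFit and eBayes of limma 3.58.1, R 4.3.3), without a replicate block, and the Benjamini-Hochberg adjustment ran over all probes tested. A gene with several tested probes counted once, by the brightest, which gave 7915 genes, and a probe without a single symbol counted as its own gene. Calls needed an adjusted p under 0.05 and a fold over 2. Altogether 23 alternatives changed the scaling, background, detection limit, variance model, call rule, replicate block or the arrays included. Fits were tested on simulated data. With 3 arrays a group, their number limits the precision.

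The genes, lists, tests and naming rule were chosen with earlier results of these data known. Named were all 10 genes and, in each pathway list, up to 3 called genes of the largest difference without overlap and the brightest gene not called. Python 3.11.15 and matplotlib 3.10.9 drew the plots.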

Additional observations from a re-analysis of the deposited data

How the results depend on the processing

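Smad2 kept its direction and its call in every alternative that tested it, and so did none of the other 3 tested genes throughout. Against 2 lower genes among the receptors and Smads, 3 were lower under median scaling and 3 with no scaling, with Tgfbr1 added, while 1 was lower under cyclic loess, 1 with dim probes kept in, 1 among probes detected on all 6 arrays and 1 with the replicate number as a block. With 1 array left out the count was 1 to 2. Against 0 higher, 1 was higher under cyclic loess and 1 under common-probe centring, and 0 to 1 with 1 array left out. Bmpr2 reversed to -0.53 under median scaling and to -0.36 without Ago2-deficient replicate 3, over a range of -0.36 to 2.03 with 1 array left out.

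Of other pathway genes 8 were lower and 8 higher. The lower count was 19 under median scaling, 13 with no scaling, 5 under cyclic loess, 5 with dim probes kept in, 1 among probes detected on all 6 and 5 to 12 with 1 array left out (5 without GV replicate 1). It was 0 under common-probe centring, by limma, and 0 also at an unadjusted p under 0.05. The higher count was 2 under median scaling, 5 with no scaling and 8 to 10 with 1 array left out. Among the pathway genes named in the text, reversed were Smad6 (-1.67), Wwp2 (-1.38), Tob1 (-0.90) and Hgs (-0.24) under median scaling, Smad6 (-0.57) and Wwp2 (-0.28) with no scaling, Junb (1.57), Dand5 (0.31) and Bmp15 (0.04) under cyclic loess, and Junb (0.90), Map3k7 (0.66), Dand5 (0.60), Eng (0.30) and Gdf9 (0.01) with that centring. Junb also reversed with normexp background (0.02), with array weights (0.43) and when Ago2-deficient replicate 1 (1.33) or GV replicate 2 (0.08) was left out, over a range of -1.02 to 1.33. The cause was not tested. Of all tested genes called, 72.0% were lower, beside 95.2% under median scaling, 88.7% with no scaling, 56.3% under cyclic loess, 60.9% with centring and 32.5% among probes detected on all 6, where the median difference was 0.83.

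Equal replicate numbers did not pair the arrays, with deviations from group means correlating at -0.0487, 0.0275 and -0.0339. The replicate block gave 1291 higher and 3384 lower genes against 1378 and 3543, and Bmpr1b was then at -1.14 with an adjusted p = 0.0811 from limma. Signal over background limits Acvr1, Smad5, Tgfbr2 and Bmpr1a, which were detected on at most 1 array.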

Other observations

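Of 59 other pathway genes on the array that did not meet the detection rule, 11 (18.6%) read higher in all 3 Ago2-deficient oocytes than in all 3 GV oocytes and 7 (11.9%) read lower in all 3, beside 12.9% and 6.59% of all 24994 probes that did not meet it. The examples were picked after their values were seen. Among the 11, Bmper, a modulator of BMPs, had mean log2 signals of 9.84 ± 1.57 and 7.18 ± 0.24 (SD, n = 3 per group) with 2 Ago2-deficient oocytes and 0 GV oocytes past the detection limit. Chrd, or chordin, had means of 10.99 and 8.47, and Nbl1, a BMP antagonist, 10.32 and 7.56, each detected in 2 oocytes of each group. Among the 7, Trim33, a ubiquitin ligase, had means of 6.52 ± 0.52 and 8.25 ± 0.77 and was detected in 2 GV oocytes, and Twsg1, a BMP-binding protein, differed by -1.58 and was detected on no array. None of these was tested.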
